A study of Mus musculus with 8 samples.

Results

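Chemokines and chemokine receptors were examined in RNA-Seq of the renal cortex of aged and young mice, as every gene of the deposited table whose symbol names a CC or CXC chemokine (Ccl, Cxcl), one of their receptors (Ccr, Cxcr, Ccrl), the fractalkine pair Cx3cl1 and Cx3cr1, the pair Xcl1 and Xcr1, or chemerin (Rarres2) and its receptor Cmklr1. The rule found 63 of 22609 genes, of which 40 were ligands and 23 receptors. It used symbols only and no measured value. Changes are reported for the 25 members with at least 10 counts in 4 or more libraries, 15 ligands and 10 receptors. Kidneys came from 4 aged male mice of 30 months and 4 young male mice of about 5 months, all untreated C57BL6 animals with 1 library each, and the study's methods give a slightly higher mean age for the aged mice. Ribosomal RNA was depleted, and read pairs were counted per gene. Cortex is a mixture of tubules, glomeruli, vessels and resident immune cells, so fewer cells of a type and less RNA per cell cannot be told apart in any value below.

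Chemokines are small secreted proteins that direct the movement of leukocytes along gradients, and they signal through G protein-coupled receptors on the responding cell. They are grouped by the spacing of the first cysteines of the mature protein, with adjacent cysteines in CC chemokines, a single residue between them in CXC chemokines and 3 residues between them in fractalkine. Some are made constantly by stromal and epithelial cells and hold resident cells in place, others are induced in inflammation, and a few receptors bind a ligand without G protein signalling and remove it or present it to other cells. In the kidney, members of both kinds are known from tubular epithelium, endothelium and infiltrating leukocytes.

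Gene counts summed to 14820804 to 19018543 read pairs per aged library and to 15152597 to 19821429 per young library. Levels are given as CPM, the count scaled by the library's total after TMM normalization in edgeR. A floor of 3 counts stood for 0.147 to 0.204 CPM depending on the library, and it covers counting error only. The library of aged mouse 1 stood apart, at -71.5 on the first principal component against -16.3 to 26.2 for the other 7. The summed level of 6 proximal tubule markers was 9073 CPM in that mouse, against 18897 to 21120 CPM in the other aged mice and 18204 to 21898 CPM in the young mice, and none of the 6 changed or was at 0 throughout. Distal tubule and collecting duct markers, 4 in all with none changed, summed to 1428 to 1581 CPM in the aged and 860 to 1381 CPM in the young mice. Most of this sum was Slc12a3, at 1164 to 1328 CPM in the aged and 636 to 1156 CPM in the young mice. Aqp2 (log2 fold change 0.56) overlapped, and Scnn1b (-0.26) and Hsd11b2 (-0.31) went the other way. Sums for thick ascending limb, podocytes and lymphatic endothelium overlapped. To count as changed, a gene had to differ by more than 1.5-fold with an adjusted p below 0.05. The test was edgeR's quasi-likelihood F test, and p values were adjusted over 13944 genes by the method of Benjamini and Hochberg.

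Expression of 4 of the 25 members changed, all of them ligands and all higher in the aged mice. They were Ccl6, Rarres2, Cxcl12 and Cxcl13. Of all genes tested, 2.06% changed and 1.17% were higher by the same criteria, against 16% of the members. Without Cxcl13, which reached the count minimum only through the 4 aged libraries, 3 of 24 members (12.5%) changed. None of the 10 receptors changed, although 2 of them, and 25.5% of all genes tested, had an unadjusted p below 0.05, and DESeq2 and limma-voom called Cxcr6. The median log2 fold change of the 25 members was 0.19, and 0.16 without Cxcl13. Over all genes tested the median was 0.03. In 16 members (64%) the log2 fold change was above 0, and in 62.5% without Cxcl13, against 54.1% of all genes. Without aged mouse 1 the changed members were 5, with Cxcr6 added, where 3.17% of all genes changed, and without aged mouse 4 the same 4 changed, where 5.21% did. The same 4 also changed without aged mouse 3, where 0.815% of all genes did. Leaving out a mouse of the young group lowered both the calls of members and those of all genes, though not in the same proportion. Without young mouse 1, 3 or 4 only Ccl6 met the criteria, where 0.0567%, 0.099% and 0.0849% of all genes did. Without aged mouse 2 or young mouse 2, Ccl6 and Rarres2 met them, where 0.845% and 0.248% of all genes did.

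**Figure D1:**
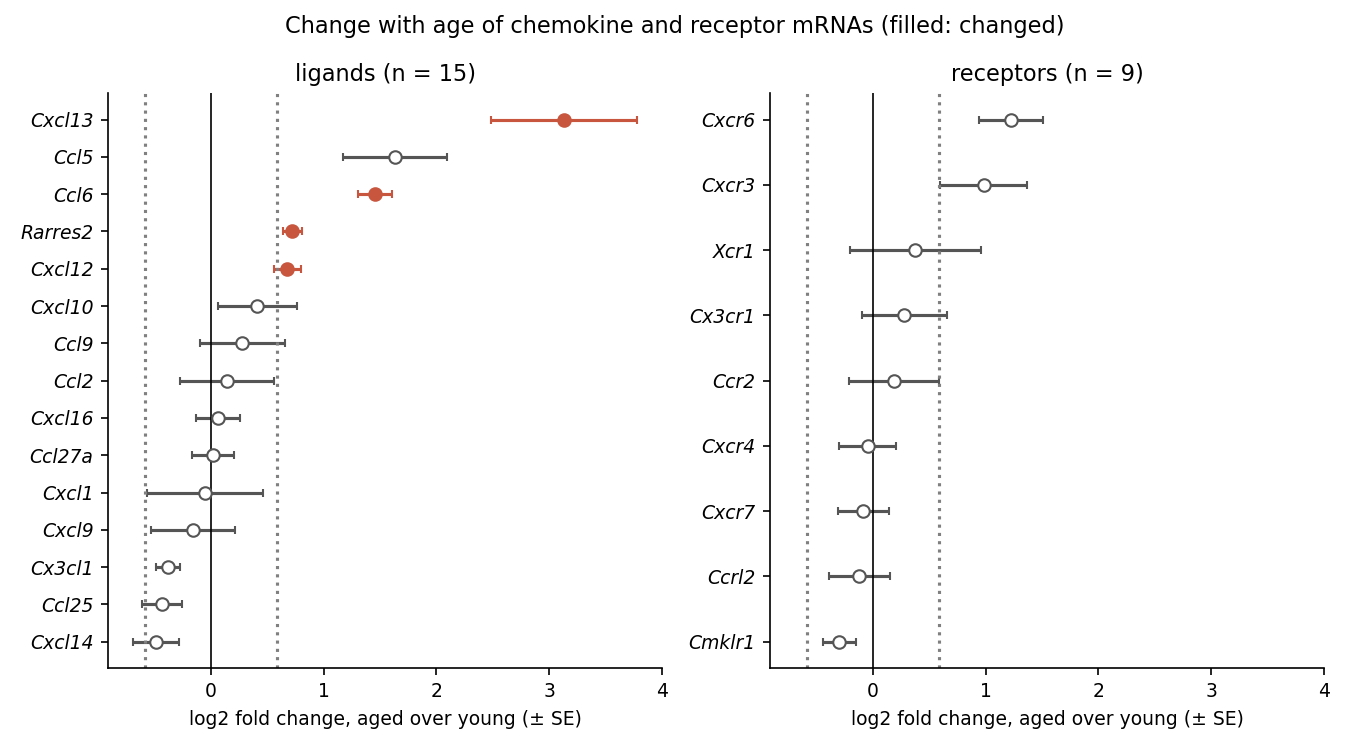
Log2 fold change of 24 of the 25 members, aged over young, from edgeR, for ligands on the left and receptors on the right. Horizontal bars are the standard error derived from edgeR's F statistic. Filled points are the 4 changed ligands (Cxcl13 at 3.13, Ccl6 at 1.45, Rarres2 at 0.72 and Cxcl12 at 0.68), open points did not meet the criteria, and dotted lines mark a fold change of 1.5.

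The family to which a chemokine belongs can be read from its coding sequence. The stretch around the first cysteines is shown for 3 of the changed ligands, taken from mouse mm9 transcripts and read on the coding strand, with the codons of the first pair of cysteines in capitals. Fractalkine is shown for contrast. Chemerin is not built on this cysteine pattern and is counted here by its function.
Ccl6: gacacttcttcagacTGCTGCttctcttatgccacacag
Cxcl12: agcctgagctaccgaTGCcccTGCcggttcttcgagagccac
Cxcl13: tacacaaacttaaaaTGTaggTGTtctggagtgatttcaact
Cx3cl1: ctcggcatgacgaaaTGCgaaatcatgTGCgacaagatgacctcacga
These lines start at codon 45 of 117 in Ccl6, codon 25 of 120 in Cxcl12, codon 27 of 110 in Cxcl13 and codon 27 of 396 in Cx3cl1, and they show 0, 1, 1 and 3 codons between the cysteines. The far longer coding sequence of Cx3cl1 also encodes a mucin stalk and a membrane anchor, a build that fractalkine shares with Cxcl16.

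Many members lie in gene clusters. In mm9, 12 ligands lie on chromosome 11, 11 ligands on chromosome 5 and 14 receptors on chromosome 9. The gene Ccl6 lies at chr11:83401384-83406589 on the minus strand, next to Ccl9 (chr11:83386421-83392138) and Ccl5 (chr11:83339280-83344020). Rarres2 (chr6:48519697-48522669, minus strand) and Cxcl12 (chr6:117118553-117131385, plus strand) lie far apart on chromosome 6. Cxcl13 (chr5:96385945-96390086, plus strand) lies apart from Cxcl9 (chr5:92750357-92757105) and Cxcl10 (chr5:92775664-92777915). Reads are counted over exons, so each value below is a sum over all exons of the gene.

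Promoters from RefSeq (build GRCm38.p6, 250 bases before to 50 bases after the start) were found for 20 of the 25 members and for 3 of the 4 that changed. Those of the 3 are shown because each gene was called higher in the aged mice. Matches to TATAAA or GGGCGG on either strand are in capitals. Both strands were searched, and CACGTG and the NF-kB consensus motif were included.
Ccl6, chr11:83593038-83593337, minus strand: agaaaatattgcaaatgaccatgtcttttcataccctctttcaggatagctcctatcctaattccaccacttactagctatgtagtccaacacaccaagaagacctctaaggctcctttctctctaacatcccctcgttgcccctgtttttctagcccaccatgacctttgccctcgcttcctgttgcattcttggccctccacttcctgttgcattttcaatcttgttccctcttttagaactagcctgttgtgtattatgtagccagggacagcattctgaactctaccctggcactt
Cxcl12, chr6:117168285-117168584, plus strand: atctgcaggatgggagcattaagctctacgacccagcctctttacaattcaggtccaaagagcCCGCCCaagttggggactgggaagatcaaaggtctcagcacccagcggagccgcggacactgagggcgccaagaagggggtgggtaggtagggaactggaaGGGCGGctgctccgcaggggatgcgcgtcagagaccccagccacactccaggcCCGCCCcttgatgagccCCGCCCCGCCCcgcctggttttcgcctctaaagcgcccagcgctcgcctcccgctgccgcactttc
Cxcl13, chr5:95956689-95956988, plus strand: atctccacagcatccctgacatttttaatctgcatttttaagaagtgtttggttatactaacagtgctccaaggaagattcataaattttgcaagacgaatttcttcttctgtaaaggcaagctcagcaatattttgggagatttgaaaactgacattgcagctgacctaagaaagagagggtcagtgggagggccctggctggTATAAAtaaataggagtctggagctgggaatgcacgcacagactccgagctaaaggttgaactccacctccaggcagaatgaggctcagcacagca
The Cxcl12 promoter held GGGCGG at 5 places, of which a neighbouring pair overlapped, and the Cxcl13 promoter held TATAAA 46 bases before the start. None of the 4 motifs occurred in the Ccl6 window. Of the 20 members with a promoter, 8 held TATAAA, 7 held GGGCGG, 2 held CACGTG and 5 (Ccl9, Ccl27a, Ccrl2, Cxcl1 and Cxcl10) held the NF-kB motif, while 13.6%, 35.7%, 7.15% and 8.46% of all 32851 promoters held them. Genes with several listed starts were counted if any of their promoters, 25 in all, held the motif. The shares of all promoters count each promoter singly, so the member counts cannot be compared with them directly. A match is a description of the letters and no evidence of a bound factor.

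Levels per kilobase of transcript place the members on a common scale. The length used was that of each gene's longest coding transcript, and the order depends on that choice. It was 5627 bases for Cxcl12 and 3311 bases for Cx3cl1. Before division by length the young means were 132 CPM for Cxcl12 and 123 CPM for Cx3cl1, and their mice overlapped. In the young mice the highest level was that of fractalkine, Cx3cl1, at 37.1 ± 3.74 CPM per kb (SD, n = 4). Cxcl12 at 23.4 ± 1.41, Cxcr7 at 22.1 ± 6.32, Rarres2 at 21.1 ± 1.1, Cxcl14 at 16.6 ± 3.60 and Cxcl16 at 14.1 ± 0.908 CPM per kb followed. Every mouse's Cx3cl1 level lay above every mouse's Cxcl12 level in the young group, whereas among the next 5 each overlapped its neighbour in the order. In the aged mice Cxcl12 came first at 37.5 ± 5.87 CPM per kb, followed by Rarres2 at 34.8 ± 2.05 and Cx3cl1 at 28.5 ± 3.27, and the levels of Rarres2 overlapped those of both. Ccl6 stood 11th in the order in the young mice, at 2.34 ± 0.372 CPM per kb, and 7th in the aged mice, at 6.41 ± 0.308. Cxcl13 was the lowest but one in the young mice at 0.217 ± 0.174 CPM per kb and stood 17th in the aged mice at 1.94 ± 1.25.

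**Figure D2:**
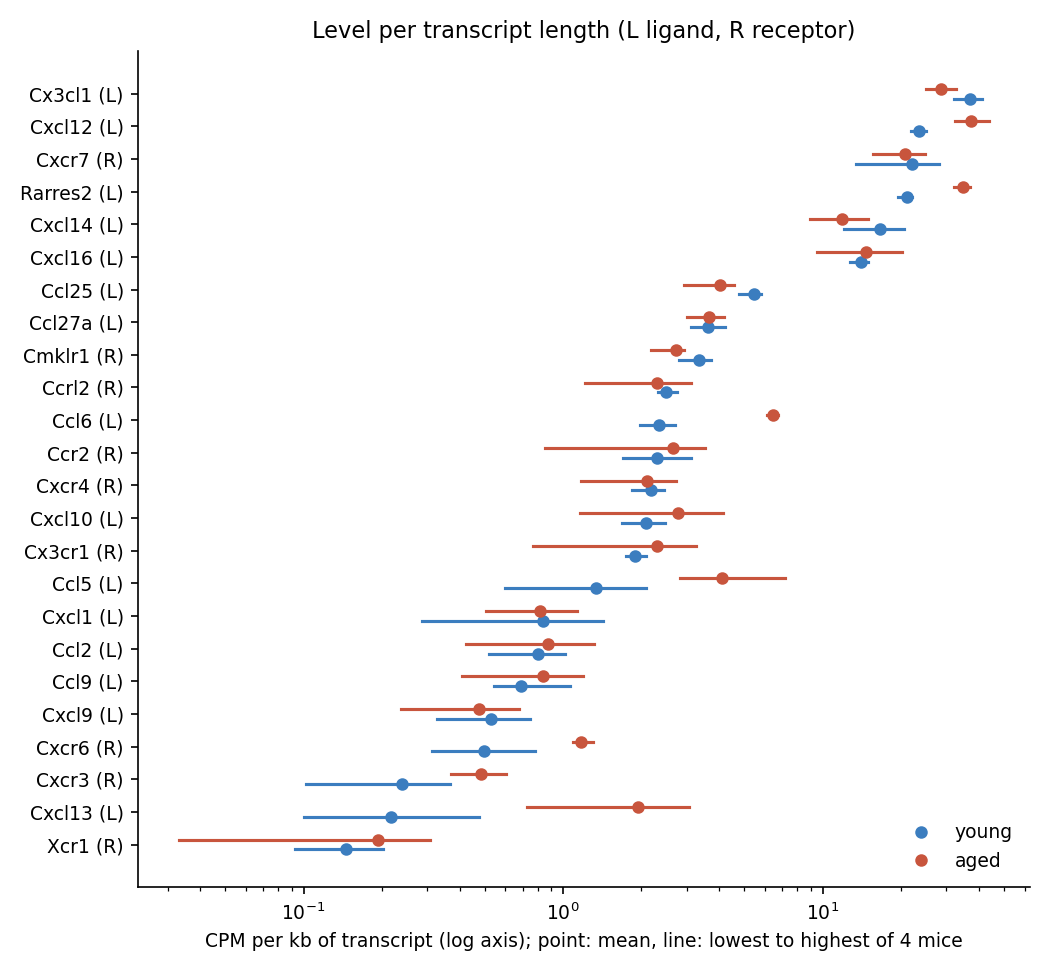
Level of 24 of the 25 members in CPM per kilobase of transcript on a log axis, with the mean of 4 mice as a point and the lowest to highest mouse as a line, in young (blue) and aged (red) mice, ordered by the young mean. Fractalkine leads in the young mice at 37.1 and Cxcl12 in the aged mice at 37.5, and the lines of Ccl6, Cxcl12, Rarres2, Cxcl13, Ccl5, Cxcr6 and Cxcr3 in the aged mice lie to the right of those in the young mice.

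Ccl6, a CC chemokine made by macrophages and other myeloid cells, had the smallest p of the members. Its level was 8.79, 9.69, 8.93 and 9.53 CPM in aged mice 1 to 4 and 3.88, 2.96, 2.86 and 3.78 CPM in young mice 1 to 4. All aged mice lay in a narrow band well above all young mice. The log2 fold change was 1.45 (SE 0.15, edgeR adjusted p = 0.00670), and it stayed between 1.38 and 1.52 with each mouse left out in turn, with an adjusted p of at most 0.0358. Among all genes tested, Ccl6 ranked 9th by p. Ccl9, the neighbouring gene and also a myeloid chemokine, did not move in this way. Its level was 3.58, 1.89, 1.23 and 3.32 CPM in the aged mice and 3.21, 1.69, 1.63 and 1.77 CPM in the young mice, and the groups overlapped (log2 fold change 0.28, SE 0.38, edgeR adjusted p = 0.667). A few of its read positions, 1.07% of windows of 100 bases, had a near-identical copy elsewhere in mm9. Ccr1, a receptor for both ligands, had 22, 29, 7 and 12 counts in the aged mice and 9, 6, 9 and 8 counts in the young mice, and with 10 counts in only 3 libraries it was under the minimum.

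Marker lists of the myeloid cells that make Ccl6 held no gene that met the criteria as higher in the aged mice. Of 10 macrophage markers Csf1r fell (log2 fold change -1.0, SE 0.22, edgeR adjusted p = 0.0473) and the other 9 had a log2 fold change above 0 without passing the test. Among these 9, only Mrc1 had every aged mouse above every young mouse (log2 fold change 0.83, SE 0.22, edgeR adjusted p = 0.0749). The summed level of the macrophage list ranged from 112 to 209 CPM in the aged mice and from 124 to 179 CPM in the young mice, with no marker at 0 in every library. Csf1r, the marker that fell, was the largest part of that sum, at 23.9 to 41.7 CPM in the aged and 47.7 to 75.3 CPM in the young mice. Of 6 neutrophil markers 4 were tested and none changed, yet their sum was 7.86 to 9.24 CPM in the aged mice and 3.97 to 6.32 CPM in the young mice, with Camp at 0 in every library. All 4 tested had a log2 fold change above 0, and S100a9 had every aged mouse above every young mouse (1.02, SE 0.29, edgeR adjusted p = 0.0811). The part of these cells in the Ccl6 result was not tested.

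Rarres2 encodes chemerin, a secreted protein that is activated by proteases and attracts macrophages and dendritic cells that carry Cmklr1. It stood at 22.7, 26.1, 24.5 and 25.1 CPM in aged mice 1 to 4 and at 13.9, 15, 15.2 and 15.7 CPM in young mice 1 to 4. The lowest aged mouse was well above the highest young mouse. The log2 fold change was 0.72 (SE 0.085, edgeR adjusted p = 0.0125), a 1.65-fold difference that lay close to the fold threshold of 1.5. The adjusted p rose to 0.0632 without young mouse 1, to 0.0539 without young mouse 3 and to 0.0586 without young mouse 4.

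Cmklr1, the signalling receptor of chemerin, had 6.29, 8.46, 8.34 and 8.34 CPM in the aged mice and 10.5, 9.31, 8.09 and 10.7 CPM in the young mice. Its aged mice were mostly lower, but young mouse 3 lay below 3 of them (log2 fold change -0.30, SE 0.15, edgeR adjusted p = 0.236). The count ratio of Rarres2 to Cmklr1, which is not set by library size, was 2.94 to 3.61 in the aged mice and 1.32 to 1.88 in the young mice, with no overlap. This ratio was not tested, since its numerator is a changed gene. Ccrl2, which binds chemerin and presents it without signalling, ranged from 2.55 to 6.57 CPM in the aged mice and from 4.90 to 5.79 CPM in the young mice (log2 fold change -0.12, SE 0.27, edgeR adjusted p = 0.802).

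Cxcl12, the stromal chemokine that retains leukocytes and progenitor cells carrying Cxcr4, was the most highly counted member. It measured 247, 231, 183 and 183 CPM in aged mice 1 to 4 and 141, 127, 124 and 137 CPM in young mice 1 to 4. The groups did not overlap, and aged mice 1 and 2 lay above aged mice 3 and 4. The log2 fold change was 0.68 (SE 0.12, edgeR adjusted p = 0.0313), a 1.6-fold difference that was also close to the fold threshold. Without aged mouse 1, the highest, it was 0.59 with an adjusted p of 0.0197. The adjusted p was 0.0578 without aged mouse 2, and 0.0896, 0.0891, 0.0948 and 0.103 without young mice 1 to 4 in turn. Cxcl12 also did not meet the criteria when the replicate number was added to the fit as a block, where 0.932% of all genes did.

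Both receptors of Cxcl12 overlapped between the groups. Cxcr4, the signalling receptor, had 4.17, 4.03, 4.92 and 2.12 CPM in the aged mice and 3.76, 4.23, 3.33 and 4.43 CPM in the young mice, with aged mouse 4 lowest (log2 fold change -0.05, SE 0.26, edgeR adjusted p = 0.918). Cxcr7, a scavenger that takes up Cxcl12, was present at far higher levels per length than Cxcr4 and measured 47.8, 75.8, 71.5 and 60.1 CPM in the aged mice and 77.1, 41.4, 66.1 and 86.1 CPM in the young mice. Its highest and its lowest value were both in young mice (log2 fold change -0.09, SE 0.23, edgeR adjusted p = 0.831). The signs of the Cxcr4 and Cxcr7 log2 fold changes turned when libraries were scaled by their size alone. Summed fibroblast and pericyte markers, cells that make Cxcl12, overlapped between the groups (221 to 360 CPM in aged and 285 to 353 CPM in young mice). None of the 5 changed and none was at 0 in every library, but they went both ways. Col1a1 was lower in every aged mouse (log2 fold change -1.20, edgeR adjusted p = 0.0729), and Col1a2 (-0.57) and Pdgfrb (-0.17) were also below 0. Pdgfra (0.45) and Dcn (0.62) were above 0. Blood endothelium sums overlapped as well (342 to 512 CPM in aged and 405 to 446 CPM in young mice), where none of 5 changed or was at 0 throughout. The part of these cells in the Cxcl12 result was not tested.

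Cxcl13, which draws B cells to lymphoid follicles through Cxcr5, had the highest log2 fold change of the 25 members, with its largest standard error. It had 73, 18, 16 and 64 counts in aged mice 1 to 4 and 9, 4, 2 and 2 counts in young mice 1 to 4. These correspond to 3.58, 1.17, 0.855 and 3.49 CPM in the aged mice and 0.555, 0.212, 0.136 and 0.118 CPM in the young mice. Aged mice 1 and 4 were far above aged mice 2 and 3, and these in turn were above all young mice, of which the last 2 were under the floor of 3 counts. The log2 fold change was 3.13 (SE 0.65, edgeR adjusted p = 0.0429). Because the gene passed the minimum of 10 counts only in the aged libraries, it had to be higher there to be reported at all. The adjusted p was 0.0578 without aged mouse 2, and 0.0896, 0.113, 0.118 and 0.132 without young mice 1 to 4, while the log2 fold change lay between 2.82 and 3.80.

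The receptor of Cxcl13, Cxcr5, was under the minimum with 12 counts in all in the aged mice and 19 in the young mice. Of 7 B cell markers 2 were tested, and neither Cd79a (log2 fold change 0.57, edgeR adjusted p = 0.316) nor Cd79b (0.00, adjusted p = 0.998) changed. Their list summed to 1.82 to 4.16 CPM in the aged mice and 1.59 to 4.18 CPM in the young mice, and none was at 0 in every library. Among 4 plasma cell markers in the table, 3 were tested and Igj, the joining chain of secreted antibodies, rose (log2 fold change 2.65, SE 0.45, edgeR adjusted p = 0.0309). Sdc1 (0.81, adjusted p = 0.0597) and Xbp1 (-0.17, adjusted p = 0.620) did not change. The list summed to 131 to 274 CPM in the aged and 123 to 179 CPM in the young mice, with none at 0 throughout. Xbp1 was the largest part of that sum, at 78.1 to 157 CPM in the aged and 109 to 158 CPM in the young mice. The part of these cells in the Cxcl13 result was not tested.

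**Figure D3:**
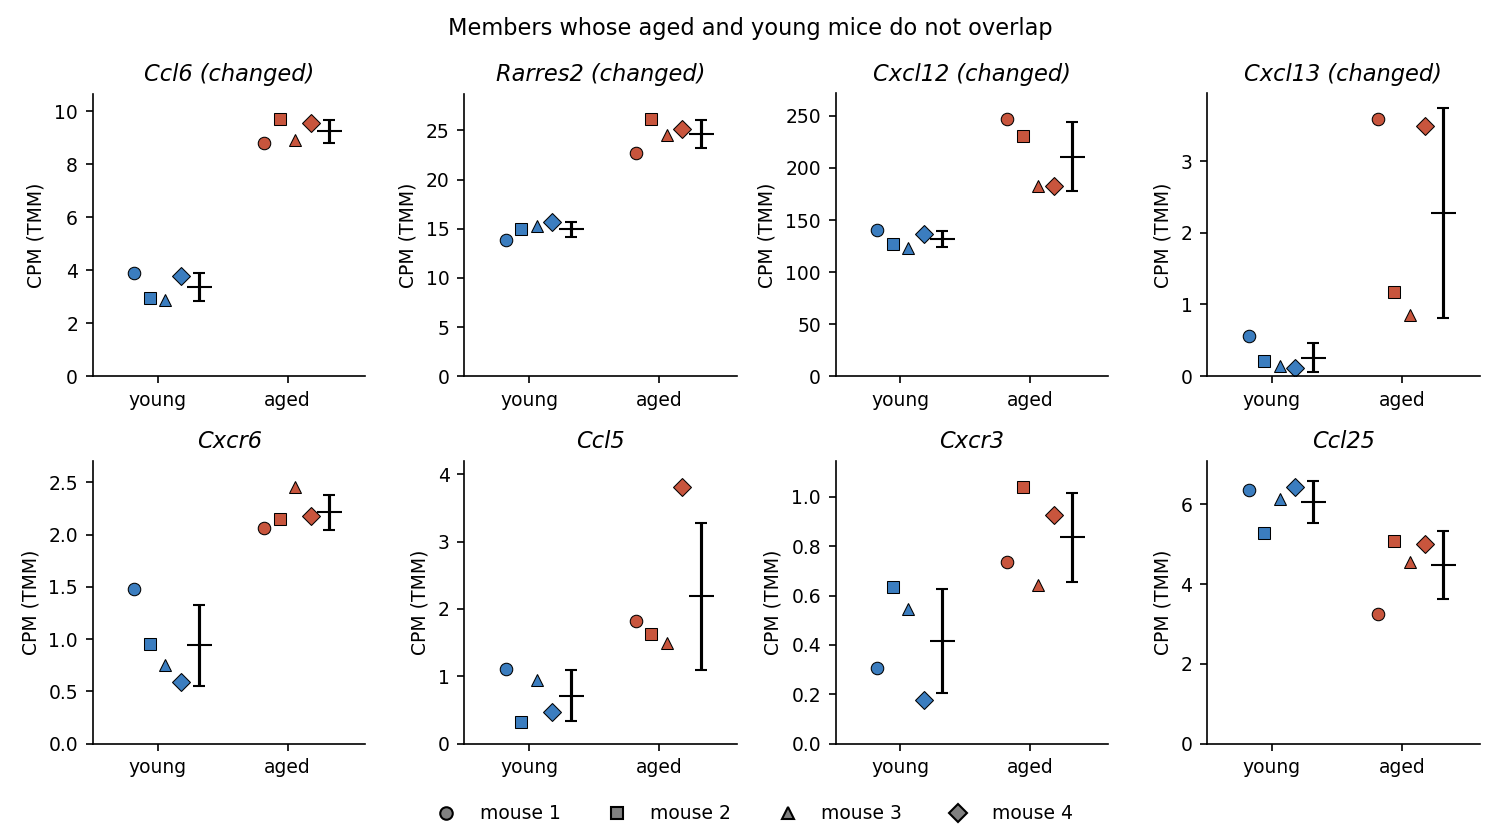
Level of the 8 members whose aged (red) and young (blue) mice did not overlap, in CPM, with a symbol for each mouse and the mean ± SD of 4 mice as a bar beside them. The top row holds the 4 changed ligands, from Ccl6 with its narrow bands (9.24 ± 0.444 against 3.37 ± 0.536 CPM) to Cxcl13 with 2 high and 2 low aged mice, and the bottom row holds Cxcr6, Ccl5, Cxcr3 and Ccl25, which did not meet the criteria.

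The lowest aged mouse exceeded the highest young mouse in 7 members, and in 1 member the order was the opposite. That is 28% of the members above, or 6 of 24 (25%) without Cxcl13, against 8.85% of all genes tested, and 4% below, against 10% of all genes. Besides the 4 changed ligands, the 7 comprised Cxcr6, Ccl5 and Cxcr3, and the member below was Ccl25.

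Cxcr6, a receptor of effector and tissue-resident T cells and NKT cells, had 2.06, 2.15, 2.46 and 2.18 CPM in aged mice 1 to 4 and 1.48, 0.952, 0.748 and 0.591 CPM in young mice 1 to 4. The aged mice were close together and the young mice more spread. Its log2 fold change of 1.22 (SE 0.29) did not pass edgeR's test (adjusted p = 0.0548). It did so without aged mouse 1 (adjusted p = 0.0479). It also did with limma-voom (adjusted p = 0.0368), with libraries scaled by size alone (0.0403) and with DESeq2 (0.00683), which called 3.46%, 3.5% and 6.26% of all genes.

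Cxcl16, the membrane-bound ligand of Cxcr6 known from tubular epithelium, had 25.7, 54.6, 36.5 and 42.1 CPM in the aged mice and 38.3, 40.4, 38.7 and 34.6 CPM in the young mice. Its aged mice lay on both sides of the young mice (log2 fold change 0.06, SE 0.20, edgeR adjusted p = 0.858). The count ratio of Cxcl16 to Cxcr6 was 12.5 to 25.4 in the aged mice and 25.9 to 58.5 in the young mice, just without overlap, and it was not tested.

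Ccl5, a chemokine of activated T cells and NK cells, had 1.82, 1.63, 1.5 and 3.81 CPM in aged mice 1 to 4 and 1.11, 0.317, 0.952 and 0.473 CPM in young mice 1 to 4. Aged mouse 4 stood above the rest. The log2 fold change was 1.63 (SE 0.46, edgeR adjusted p = 0.0811), and it was 1.22 without aged mouse 4 (adjusted p = 0.0998). DESeq2 gave an adjusted p of 0.0176.

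Cxcr3, the receptor of T helper cells and NK cells for interferon-induced chemokines, had 0.737, 1.04, 0.641 and 0.926 CPM in the aged mice and 0.308, 0.635, 0.544 and 0.177 CPM in the young mice. The lowest aged and the highest young mouse were nearly equal (log2 fold change 0.98, SE 0.39, edgeR adjusted p = 0.158). Its interferon-induced ligands overlapped between the groups. Cxcl10 measured 1.28, 2.80, 3.53 and 4.52 CPM in the aged mice and 2.71, 1.85, 2.38 and 2.19 CPM in the young mice (log2 fold change 0.41, SE 0.35, edgeR adjusted p = 0.480). Cxcl9 measured 0.687, 1.76, 1.12 and 1.96 CPM in the aged mice and 2.16, 1.43, 0.952 and 1.59 CPM in the young mice (log2 fold change -0.16, SE 0.37, edgeR adjusted p = 0.806). Aged mouse 1 was the lowest of all 8 mice in both ligands. The third ligand, Cxcl11, was under the minimum, with 4 counts in all in the aged mice and 14 in the young mice.

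T cell markers stood higher in most aged mice. Of 8 T cell markers 7 were tested, none changed, and all 7 had a log2 fold change above 0, from 0.11 for Cd2 to 1.21 for Zap70. Their sum was 7.32 to 10.7 CPM in the aged mice and 3.07 to 7.40 CPM in the young mice, a range that barely overlapped, and none of the 8 was at 0 in every library. Of 5 NK cell markers only Nkg7 was tested, with a log2 fold change of 1.15 (SE 0.30, edgeR adjusted p = 0.0701), the list summed to 1.38 to 2.54 CPM in the aged and 1.00 to 1.90 CPM in the young mice, and none was at 0 throughout. The part of these cells in the values of Cxcr6, Ccl5 and Cxcr3 was not tested.

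Cx3cl1, Ccl25 and Cxcl14 had the 3 lowest log2 fold changes of the members, and none of them passed the test. Cx3cl1, the membrane-anchored adhesion chemokine of endothelium and tubules, measured 82.5, 108, 95.2 and 91.0 CPM in aged mice 1 to 4 and 128, 107, 121 and 136 CPM in young mice 1 to 4. Aged mouse 2 lay just above young mouse 2, and all other aged mice were below all young mice. The log2 fold change was -0.38 (SE 0.11, edgeR adjusted p = 0.0806), and DESeq2 gave an adjusted p of 0.0202 with a change under 1.5-fold.

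Ccl25, a homeostatic chemokine of thymus and gut that acts through Ccr9, was the only member with every aged mouse below every young mouse. It measured 3.24, 5.07, 4.54 and 5.01 CPM in the aged mice and 6.35, 5.29, 6.12 and 6.44 CPM in the young mice. Aged mouse 1 was the lowest, and aged mouse 2 came close to young mouse 2 (log2 fold change -0.44, SE 0.18, edgeR adjusted p = 0.165). Cxcl14, a homeostatic chemokine of epithelia, measured 24.5, 27.3, 16.4 and 18.3 CPM in the aged mice and 37.7, 29.1, 22.0 and 32.4 CPM in the young mice. All but young mouse 3 of the young mice were above all aged mice (log2 fold change -0.49, SE 0.20, edgeR adjusted p = 0.174).

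Monocyte recruitment rests largely on Ccl2 and Ccr2, and neither moved beyond its spread. Ccl2 had 0.344, 0.455, 1.07 and 0.981 CPM in the aged mice and 0.740, 0.423, 0.612 and 0.827 CPM in the young mice, so that the aged mice included both the highest and the lowest value (log2 fold change 0.14, SE 0.42, edgeR adjusted p = 0.853). Ccr2 had 4.57, 18.9, 15.1 and 18.1 CPM in the aged mice and 16.6, 14.2, 9.66 and 9.10 CPM in the young mice. Aged mouse 1 had the lowest Ccr2 of all 8 mice and aged mice 2 and 4 the highest (log2 fold change 0.19, SE 0.40, edgeR adjusted p = 0.789).

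Cx3cr1, the fractalkine receptor of resident macrophages and dendritic cells of the kidney, had 2.85, 12.1, 7.43 and 11.9 CPM in the aged mice and 7.27, 6.51, 6.60 and 7.80 CPM in the young mice. As with Ccr2, aged mouse 1 was the lowest and aged mice 2 and 4 the highest (log2 fold change 0.28, SE 0.38, edgeR adjusted p = 0.666). Xcr1, which marks cross-presenting dendritic cells, ranged from 0.147 to 1.36 CPM in the aged mice and from 0.413 to 0.899 CPM in the young mice (log2 fold change 0.38, SE 0.58, edgeR adjusted p = 0.705). The neutrophil chemokine Cxcl1 ranged from 0.481 to 1.08 CPM in the aged mice and from 0.272 to 1.36 CPM in the young mice (log2 fold change -0.06, SE 0.52, edgeR adjusted p = 0.952). Ccl27a, an epithelial chemokine of skin, ranged from 2.65 to 3.69 CPM in the aged and from 2.75 to 3.70 CPM in the young mice (log2 fold change 0.01, SE 0.19, edgeR adjusted p = 0.964), and its counts are uncertain because 80.1% of its windows of 100 bases had a near-identical copy elsewhere in mm9.

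Aged mouse 1 had the lowest level of the aged mice in 17 of the 25 members and in 8 of the 10 receptors. Its Ccr2 was 26.3%, its Cx3cr1 27.2%, its Xcr1 13.4% and its Ccrl2 45.3% of the mean of the other 3 aged mice. Its Cxcr6, in contrast, was 91.2% and its Cxcr4 113% of that mean. The macrophage marker sum of this mouse was 121 CPM, within the range of the other aged mice, while its proximal tubule sum was below all others as given above. Csf1r was the largest part of the macrophage sum, at 24.7 CPM in this mouse and 23.9 to 41.7 CPM in the other aged mice. Single macrophage markers of this mouse went both ways. Emr1 was 4.71 CPM against 6.89 to 17.3 CPM in the other aged mice, and C1qc 9.72 against 11.3 to 21.7 CPM. Cd14 was higher, at 15.9 against 4.65 to 7.95 CPM. The sum of 6 dendritic cell markers was 17.1 CPM in this mouse, 23.0 to 26.6 CPM in the other aged mice and 20.9 to 26.9 CPM in the young mice, and of the 5 markers tested none changed and none of the 6 was at 0 throughout. Zbtb46 was the largest part of this mouse's sum, at 11.0 against 10.9 to 15.3 CPM in the other aged mice. Itgax (2.75 against 3.63 to 7.79 CPM), Clec9a (0.688 against 1.43 to 5.12) and Cd209a (0.295 against 0.428 to 0.650) were lower. Flt3 was higher, at 1.82 against 1.24 to 1.53 CPM. The part of these cells in the receptor values was not tested. Without aged mouse 1 the log2 fold change of Ccr2 was 0.48 (edgeR adjusted p = 0.187), that of Cx3cr1 0.57 (0.0953) and that of Xcr1 0.74 (0.262), so none of these passed.

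**Figure D4:**
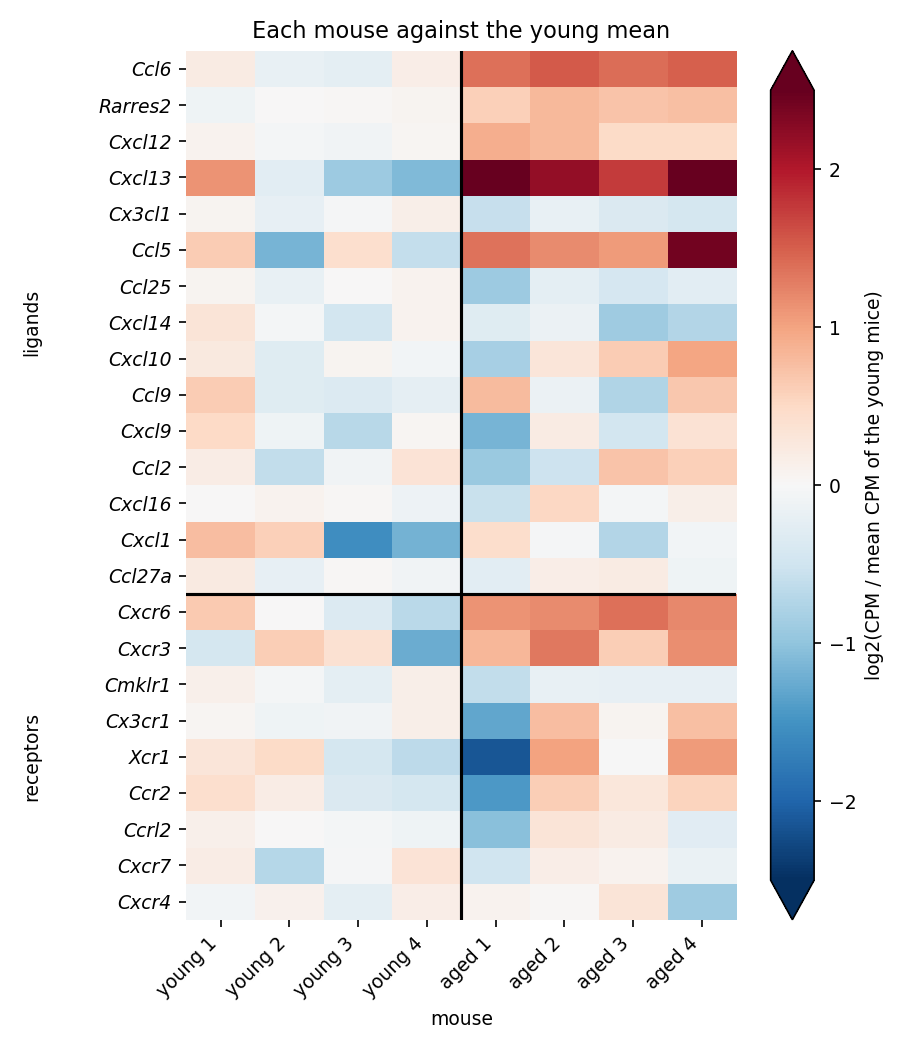
Log2 of each mouse's CPM over the mean of the young mice for the 15 ligands (top) and 9 of the receptors (bottom), with young mice on the left and aged mice on the right; red is above and blue below the young mean, and colours saturate at 2.5. Ccl6, Rarres2, Cxcl12, Cxcl13, Ccl5, Cxcr6 and Cxcr3 are red in all 4 aged mice, and aged mouse 1 is blue in Ccr2, Cx3cr1, Xcr1 and Ccrl2.

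The spread among aged mice was wider than among young mice in most members, as in most genes. The coefficient of variation was higher in the aged group in 18 of 25 members (72%), against 83.2% of all genes tested. Its median over the members was 31.2% in the aged and 21.7% in the young mice, against 17.2% and 8.48% over all genes. Members with low counts and wide spread, such as Cxcl13, Xcr1 and Cxcl1, are part of that median.

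Genes that act around the chemokine system did not pass the criteria. Of 56 genes in 3 lists, 46 were tested and 0 changed, with 7 at an unadjusted p below 0.05, 6 of them higher in the aged mice. These 7 are 15.2% of the genes tested in the lists, below the 25.5% of all genes. DESeq2, which called 6.26% of all genes, called 2, Pik3r5 and Tlr4. Among the platelet chemokines and proteins that bind or cut chemokines, 4 of 7 were tested, and the smallest p values were those of the platelet chemokines Pf4 (log2 fold change 1.39, SE 0.63, edgeR adjusted p = 0.206) and Ppbp (0.64, SE 0.49, adjusted p = 0.428) and of Dpp4 (0.09, SE 0.13, adjusted p = 0.682), the peptidase that clips and inactivates Cxcl12. Downstream of the receptors, 27 of 28 genes were tested, led by Pik3r5, a regulatory subunit of PI3K gamma (1.14, SE 0.33, adjusted p = 0.0891), Arrb2, which internalizes receptors (0.44, SE 0.16, adjusted p = 0.130), and Rac1, a small GTPase of cell movement (-0.16, SE 0.066, adjusted p = 0.177). Of 21 inducing cytokines, their receptors and NF-kB genes, 15 were tested, led by Nfkb1 (0.24, SE 0.069, adjusted p = 0.0858), the lipopolysaccharide receptor Tlr4 (0.73, SE 0.21, adjusted p = 0.0860) and Nfkbiz (0.52, SE 0.17, adjusted p = 0.108). Without aged mouse 4, Tlr4 met the criteria (adjusted p = 0.0454).

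The remaining 38 members were under the minimum. In 10 of them no read was counted in any library, which allows a level of up to 0.204 CPM in a single library. These were the lymphoid chemokines Ccl19, Ccl21a, Ccl21b and Ccl21c, and Ccl26, Ccl27b, Ccl28, Ccr1l1, Cxcl15 and Cxcl3. Near-identical copies elsewhere in mm9 held 56.8% of the windows of Ccl19, 62.4% of those of Ccl21a and Ccl21b, 62.3% of those of Ccl21c and 37.1% of those of Ccl27b, so these counts are uncertain. In 19 members the highest count in any library was 1 to 9, namely Ccl1, Ccl3, Ccl4, Ccl7, Ccl20, Ccl22, Ccl24, Ccr3, Ccr4, Ccr6, Ccr8, Ccr10, Cxcl2, Cxcl5, Cxcl11, Cxcl17, Cxcr1, Cxcr5 and Xcl1. In 9 members, Ccl8, Ccl11, Ccl12, Ccl17, Ccr1, Ccr7, Ccr9, Ccrl1 and Cxcr2, at least 1 library had 10 counts or more. Ccl8, a chemokine for monocytes and T cells singled out after its values were seen, had 14, 13, 8 and 30 counts in the aged mice and 2, 2, 0 and 1 counts in the young mice. Its groups did not overlap, and with no filter on low counts edgeR gave a log2 fold change of 3.47 and an adjusted p of 0.0417 over 18224 genes. In that fit 1.8% of all genes had an adjusted p below 0.05. The groups also did not overlap in Ccl24 (aged above, edgeR adjusted p = 0.106) and Cxcl11 (aged below, 0.161). Like Cxcl13, Ccl8 could be seen only in the group where it was high.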

How the data were processed

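Total RNA of renal cortex was sequenced from 4 aged and 4 young mice. The authors made stranded libraries after ribosomal RNA depletion, read them as 100 bp pairs, aligned these to mm9 with TopHat2 and deposited raw counts per RefSeq gene from HTSeq-count, which used the strand. CASAVA 1.8.2 is named in the submitters' processing notes. Counts were taken from each library's own table (a joint table held the same values), and 5 last rows that name no gene were left out. They held pairs on no gene (20.0% to 29.9% of all rows' sum) and pairs aligned to several places (34.3% to 39.1%) among others.

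Counts were tested in R 4.3.3 with edgeR 4.0.16 (quasi-likelihood, TMM, filterByExpr with minimum count 10, no covariate, all 8 libraries), and Benjamini-Hochberg adjustment covered all 13944 genes tested. Differences are aged minus young. The quasi-likelihood test gives no standard error, so each SE is the absolute log2 fold change divided by the square root of F. Alternatives were DESeq2 1.42.0, limma 3.58.1 (voom with quality weights), other scalings, filters and thresholds, a replicate block and each mouse left out. The tests were tried on simulated counts first. DESeq, named in the study's methods, and its FPKM criterion were not used here. Each library is 1 mouse. No pair of libraries was a duplicate, since the smallest chi-square per gene was 9.22.

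Positions, transcript lengths and coding sequences came from GENCODE on NCBIM37 (mm9), copies from BLAST 2.17.0 (98% identity over 100 bases) and promoters from RefSeq on GRCm38.p6, run from Python 3.11.15. The members and lists were chosen with earlier results of these data known. Values in every mouse are given for members that changed, for the 15 with the smallest p, for the 6 with the highest level per length and for a list of well known members. The values of 1 member are not reported here, although it is included in all counts and medians. Pathway genes are named as the 3 with the smallest p per list.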

Additional observations from a re-analysis of the deposited data

Results flagged for a closer look

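In 3 members a single mouse lay far from the others of its group, judged by the gap to its nearest neighbour as a share of the group's range. In Ccl5, aged mouse 4 was the highest at 3.81 CPM against 1.5 to 1.82 CPM in the other aged mice (gap share 0.862). In Cmklr1, aged mouse 1 was the lowest at 6.29 CPM against 8.34 to 8.46 CPM (gap share 0.945). In Ccl9, young mouse 1 was the highest at 3.21 CPM against 1.63 to 1.77 CPM in the other young mice (gap share 0.911). With 50 groups examined, chance alone gives about 2.5 such cases. None of the 3 genes changed, and no cause was tested.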

How the results depend on the processing

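The count of changed members was 4 and stayed within 1.5 times of that under every other scaling, filter and tool, with 6 members under DESeq2 (873 genes in all against 287), 5 with limma-voom, 5 with library size alone and 3 with a replicate block. With each mouse left out in turn it was 1 to 5, and all 4 young mice mattered. Members with an adjusted p below 0.05 regardless of fold were 4 (2.95% of all genes), 7 with DESeq2 (12.1% of all genes), and 1 to 5 with each mouse left out (0.0567% to 7.83% of all genes). Pathway genes changed were 0, 2 with DESeq2 and 0 to 1 with each mouse left out. At an adjusted p below 0.1, 6 members and 5.52% of all genes met the criteria. Scaling by library size alone shifted the median of all genes by 0.11 and the share of higher calls from 56.8% to 75.4%, and under it Cxcr7 (0.023), Cxcr4 (0.074) and Cxcl1 (0.055) turned sign. So did Cxcl9 (0.0057), Cxcr7 (0.0099) and Cxcl1 (0.17) with limma-voom and Cxcl1 (0.087) with the block. With each mouse left out, the log2 fold changes that turned sign ranged from -0.30 to 0.094 in Ccrl2, -0.39 to 0.066 in Cxcl9, -0.26 to 0.054 in Cxcr7, -0.13 to 0.22 in Cxcl16, -0.060 to 0.099 in Ccl27a, -0.13 to 0.39 in Ccl2, -0.33 to 0.30 in Cxcl1 and -0.20 to 0.15 in Cxcr4. None of these 8 passed the test under any alternative, and the causes were not tested. Deviations of same-numbered mice from their group means correlated at 0.21, 0.04, 0.20 and -0.03, and 3 of 4 aged mice correlated best with their own number. These values cannot decide whether the replicate numbers pair the mice, and the main fit used no block. Under the block, 130 genes changed and Cxcl12 had an adjusted p of 0.0507. Depth limits statements on the 38 members under the minimum and on Cxcl13, Xcr1, Cxcr3, Ccl2 and Cxcl1.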
